A study of Mus musculus with 8 samples.

Results

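The clustered protocadherins of the mouse were described in primary lung fibroblasts with and without the cytokine TWEAK. Members were all rows whose gene symbol is Pcdha, Pcdhb, Pcdhga, Pcdhgb or Pcdhgc followed by a number, or Pcdhac1 or Pcdhac2. This gave 58 of 52110 rows with a symbol, of which 14 belonged to the alpha, 22 to the beta and 22 to the gamma cluster. TWEAK is a secreted member of the tumour necrosis factor family that signals through a surface receptor made by fibroblasts and other cells. The 8 bulk RNA-seq libraries came from wild-type (WT) fibroblasts of mouse lung, grown in DMEM with 10% fetal bovine serum and sampled at 48 h: 2 untreated, 2 with 10 ng/ml, 2 with 30 ng/ml and 2 with 100 ng/ml TWEAK. The age and number of animals are not given in the labels, nor is it stated that replicates are separate cultures. The p-values therefore cover only the spread among the 8 libraries, and that spread may be technical.

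Clustered protocadherins are cell-surface cadherins that bind like copies on a neighbouring cell, and they are best known for letting the branches of a neuron tell self from non-self. In the alpha and gamma clusters each member has its own promoter and its own large variable exon, which is spliced to 3 constant exons shared by the whole cluster, whereas each beta member is a single exon. Promoter choice among the variable exons depends on CTCF, cohesin and DNA methylation, and the C-type members (Pcdhac1, Pcdhac2, Pcdhgc3, Pcdhgc4 and Pcdhgc5) are chosen in a way of their own.

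All 3 clusters lie on the plus strand of chromosome 18 (mm10), alpha at chr18:36930184-37187661, beta at chr18:37264938-37524479 and gamma at chr18:37661793-37841873. In the GENCODE M21 annotation the 22 gamma genes share exons of 59 and 89 bp (chr18:37825021-37825079 and chr18:37833265-37833353) and a last exon that starts at 37839903. That last exon is 1971 bp long in 17 gamma genes and 1968 bp long, ending 3 bp earlier, in the other 5, which are Pcdhga2, Pcdhga9, Pcdhgb1, Pcdhgb4 and Pcdhgb8. All 14 alpha genes share exons of 59, 89 and 2712 bp. A read from a shared exon could belong to any gene of its cluster, and how such reads were assigned is not given in the sources used here, so single alpha and gamma counts are uncertain.

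Fibroblast markers were abundant in every library. All 9 fibroblast markers (Col1a1, Col1a2, Col3a1, Pdgfra, Pdgfrb, Dcn, Lum, Thy1 and Vim) were tested, and their summed level was 21319.6 to 21626.8 CPM (counts scaled to library size, with TMM factors between libraries) untreated, 11142.8 to 11263.3 at 10 ng/ml, 11991.3 to 13232.2 at 30 ng/ml and 18929.3 to 19952.6 at 100 ng/ml. The members did not move together: at 10 ng/ml Col1a1, Col1a2, Col3a1, Lum, Pdgfrb and Thy1 were called lower, while Dcn, Pdgfra and Vim were called higher by edgeR. Col3a1 fell from 8951.8 and 8867.3 to 1935.3 and 1885.4 CPM, and Vim rose from 835.8 and 874.9 to 1258.1 and 1210.4 CPM. Of the 7 neuron markers, Rbfox3 and Nefl had no counts in any library. The summed level of the list was 2.8 to 3.17 CPM untreated, 5.61 to 6.36 at 10 ng/ml, 5.43 to 5.92 at 30 ng/ml and 2.6 to 2.64 at 100 ng/ml. Its members did not move together either: at 10 and 30 ng/ml edgeR called Stmn2 and Syt1 higher and Syp lower. Stmn2 had 2 and 0 counts untreated, 43 and 68 at 10 ng/ml, 30 and 32 at 30 ng/ml, and 0 in both 100 ng/ml libraries. It passed the filter on low counts only through the libraries where it was high, so its calls are given as a description. The 6 Schwann cell and glia markers summed to 5.1 to 8.05 CPM over all libraries, with Sox10 at 0, and the 7 epithelial markers to 0.479 to 2.22 CPM, with Epcam at 0. The 4 mesothelial markers summed to 12.6 to 13.1 CPM untreated, 4.42 to 6.06 at 10 ng/ml, 4.29 to 5.31 at 30 ng/ml and 8.39 to 11.1 at 100 ng/ml, and the 6 leukocyte markers, with Cd3e at 0, to 10.2 to 13.5 CPM untreated and 20.6 to 26.0 with TWEAK. The 5 endothelial markers summed to 5.83 to 7.69 CPM and the 5 smooth muscle and pericyte markers to 551.9 to 837.2 CPM over all libraries, most of it Acta2 (421.8 to 764.4 CPM). Within these sums, Cdh5 was called higher and Tek lower at 10 ng/ml, and Des, Cspg4 and Rgs5 higher and Myh11 lower. The part of these shifts in the results below was not tested. Library totals were 37278985 to 50810783 counts, and 3 counts corresponded to 0.0599 to 0.0801 CPM. By the number of genes called against untreated, the libraries labelled 100 ng/ml stood nearer to the untreated ones (194 of 17360 genes) than those labelled 10 ng/ml (5075) or 30 ng/ml (4041), and all are given as labelled.

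Of the 58 rows, 49 passed the filter on low counts and were tested: 6 of 14 alpha, 21 of 22 beta and 22 of 22 gamma rows. The 9 others were Pcdha2, Pcdha3, Pcdha5, Pcdha6, Pcdha7, Pcdha8, Pcdhac1, Pcdhb1 and the second of 2 rows with the symbol Pcdha11. Pcdha6 and Pcdhb1 had no counts in any library. The annotation holds 2 genes with the symbol Pcdha11, and these rows could not be assigned to one or the other.

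The gamma cluster held most of the signal. It carried 87.4% to 93.7% of the CPM of all members, while the members as a whole carried 0.103% to 0.228% of the counts of a library. Per kilobase of exon, the median level over the untreated libraries was 4.03 CPM for the 22 gamma genes, 0.761 for the 22 beta genes and 0.00942 for the 12 alpha rows with a known length, which leaves out both Pcdha11 rows. Pcdhgc3, a C-type gamma member, had the highest level per kilobase of the members with a known length, at 162 CPM untreated. The plot of all rows by library shows the low alpha block, the moderate beta block and the few very high gamma rows.

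**Figure D1:**
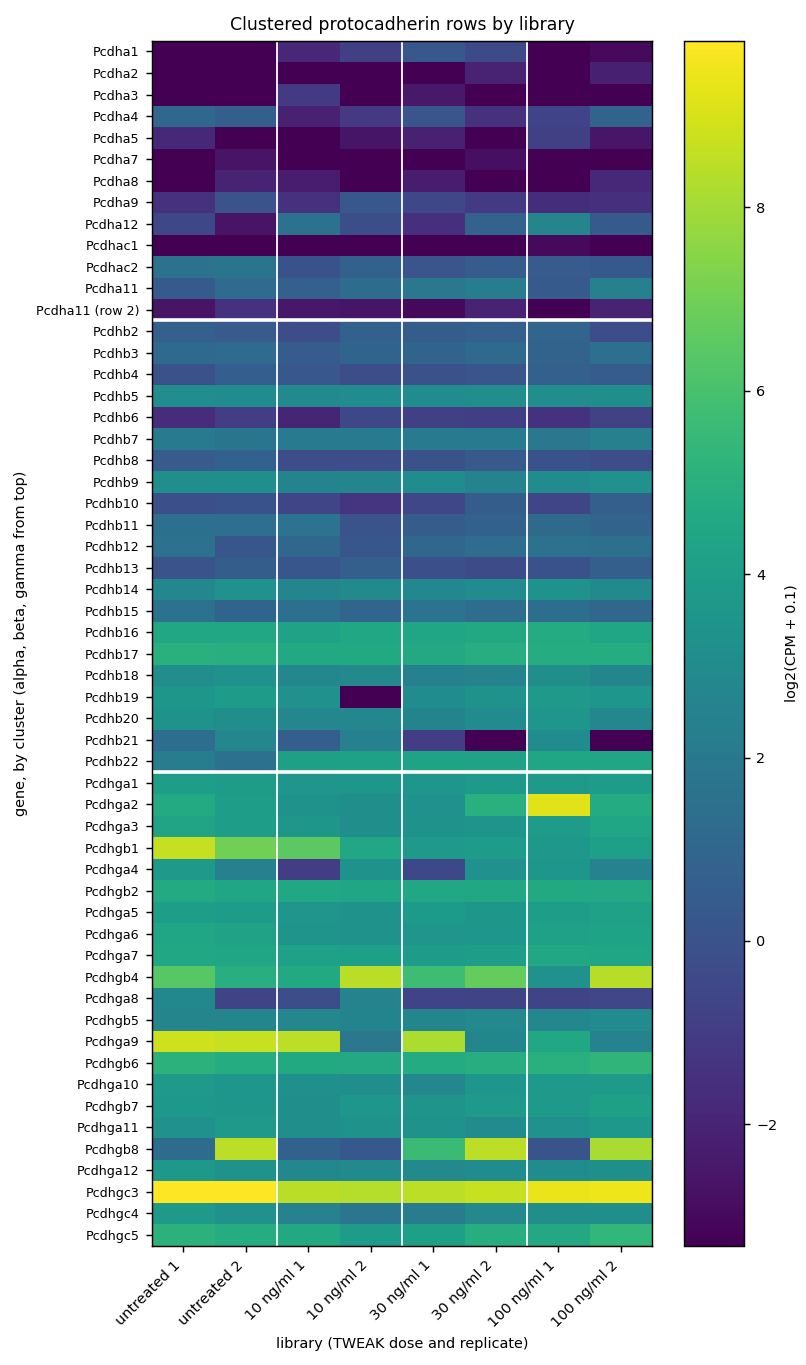
Level of the 56 clustered protocadherin rows with any count (vertical axis, by cluster) in each of the 8 libraries (horizontal axis), as log2(CPM + 0.1) in colour. The alpha rows are low throughout, and Pcdhgc3 is high in all 8 libraries. Pcdhga9, Pcdhgb4 and Pcdhgb8 vary between high and low from library to library. Pcdhga2 stands out in 100 ng/ml replicate 1 only, and Pcdhgb1 is highest in the untreated libraries.

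The summed gamma level was lower with TWEAK than without in all 6 treated libraries. It was 2171 and 2068 CPM untreated, 1033 and 892.8 at 10 ng/ml, 963.0 and 1151 at 30 ng/ml, and 1582 and 1666 at 100 ng/ml. No treated library reached an untreated one, and the ratio to the untreated mean was 0.454, 0.499 and 0.766 at the 3 doses in rising order. In bulk RNA fewer cells of a type and less RNA per cell cannot be told apart. No test was run on the sum, because the members were chosen with results known.

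Most gamma counts sat in 6 rows, Pcdhgc3 and the 5 genes with the shorter last exon, which together held 79.3% to 88.7% of the gamma counts in each library. Within those 5 the counts changed places between libraries, including libraries of the same group. In untreated replicate 1, Pcdhga9 held 47.9% and Pcdhgb1 40.8% of the sum of the 5, whereas in untreated replicate 2 Pcdhga9 held 43.7% and Pcdhgb8 38.1%. At 10 ng/ml, Pcdhga9 led replicate 1 with 74.0% and Pcdhgb4 led replicate 2 with 90.3%. At 30 ng/ml, Pcdhga9 led replicate 1 with 69.8% and Pcdhgb8 led replicate 2 with 70.1%. At 100 ng/ml, Pcdhga2 led replicate 1 with 92.8%, and in replicate 2 Pcdhgb4 held 50.5% and Pcdhgb8 42.3%. The leading gene thus differed between the replicates in all 3 treated groups. These 5 were singled out after their values were seen, and no test was run on them as a set.

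Single values show the size of this exchange. Pcdhgb8 was at 2.40 and 363.5 CPM untreated, 1.58 and 1.12 at 10 ng/ml, 49.1 and 369.2 at 30 ng/ml, and 0.98 and 286.4 at 100 ng/ml, a 292.2-fold difference between replicates at the highest dose. Pcdhga9 was at 472.2 and 416.7 CPM untreated but at 361.7 and 3.62 at 10 ng/ml, 292.1 and 6.42 at 30 ng/ml, and 23.0 and 5.53 at 100 ng/ml. Pcdhga2 was at 9.23 to 31.9 CPM in 7 libraries and at 598.8 CPM in 100 ng/ml replicate 1. Neither Pcdhgb8 nor Pcdhga9 nor Pcdhgb4 passed the test in any comparison, and their fitted log2 changes at 10 ng/ml were -7.09 ± 2.9, -1.28 ± 1.8 and 1.71 ± 1.48 (SE).

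The sum of the 5 varied less between replicates than each of them did at its most. It was 986.7 and 953.7 CPM untreated, 488.9 and 382.8 at 10 ng/ml, 418.7 and 526.8 at 30 ng/ml, and 645.4 and 677.5 at 100 ng/ml, so replicates stood close together while the single genes did not. The ratios to untreated were 0.449, 0.487 and 0.682. The sum divided by the level of Pcdhgc3 stayed between 0.926 and 1.37 over the 8 libraries. The other 16 gamma rows summed to 281.3 and 234.6 CPM untreated, 185.9 and 185.2 at 10 ng/ml, 177.1 and 210.9 at 30 ng/ml, and 239.0 and 274.9 at 100 ng/ml, with ratios of 0.719, 0.752 and 0.996. Over all clusters, 19 of the 49 tested members differed more than 2-fold between replicates in at least 1 group, of which 5 were alpha, 7 beta and 7 gamma rows. The other 2 gamma rows were Pcdhga4, with up to 24.6-fold between replicates, and Pcdhga8. The share of all tested genes with such a difference was not counted. Rows with few counts, such as Pcdhb6 (6 to 26 counts), are among the 19, so the number is not given as a trait of the members.

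**Figure D2:**
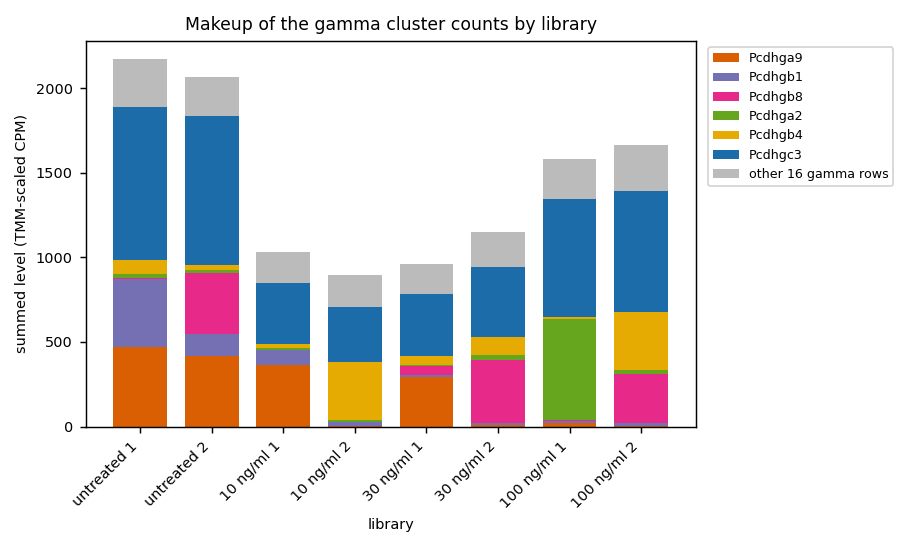
Stacked bars of the summed gamma cluster level (vertical axis, TMM-scaled CPM) in each of the 8 libraries (horizontal axis), split into the 5 genes with the shorter last exon, Pcdhgc3 and the other 16 rows. Bar height falls from 2171 and 2068 CPM untreated to 892.8 to 1151 CPM at 10 and 30 ng/ml, and the colour that leads among the 5 changes between replicates.

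Against untreated cells, 14 of the 49 tested members were called at 10 ng/ml (28.6%, with 29.2% of all 17360 genes called), 2 higher and 12 lower, at an edgeR adjusted p under 0.05. For all genes 15.0% were called higher and 14.2% lower. The total share was near that of all genes. The gamma cluster had 9 of 22 called lower (40.9%) and none higher, and its median log2 change was -0.54, with 0.006 over all genes. The beta cluster had 1 higher and 1 lower of 21 and a median of -0.32. The alpha cluster had 1 higher (Pcdha1) and 2 lower of 6 and a median of 0.18. Pcdha1 passed the filter on low counts only through the libraries where it was high. Its calls, counted here and at 30 ng/ml, are therefore a description.

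At 30 ng/ml, 11 of 49 were called (22.4%, with 23.3% of all genes), 2 higher and 9 lower, where all genes had 12.6% higher and 10.7% lower. The gamma cluster had 7 of 22 called lower, none higher, and a median of -0.46, with 0.006 over all genes. The beta cluster had 1 higher and 1 lower and a median of -0.19. At 100 ng/ml, 2 of 49 were called (4.08%, with 1.12% of all genes), Pcdhb22 higher (0.812% of all genes) and Pcdhgb1 lower (0.305%), and the gamma median was -0.05. These comparisons share the untreated libraries. Because gamma rows share exons and may share reads through them, their calls cannot be taken as independent of each other.

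**Figure D3:**
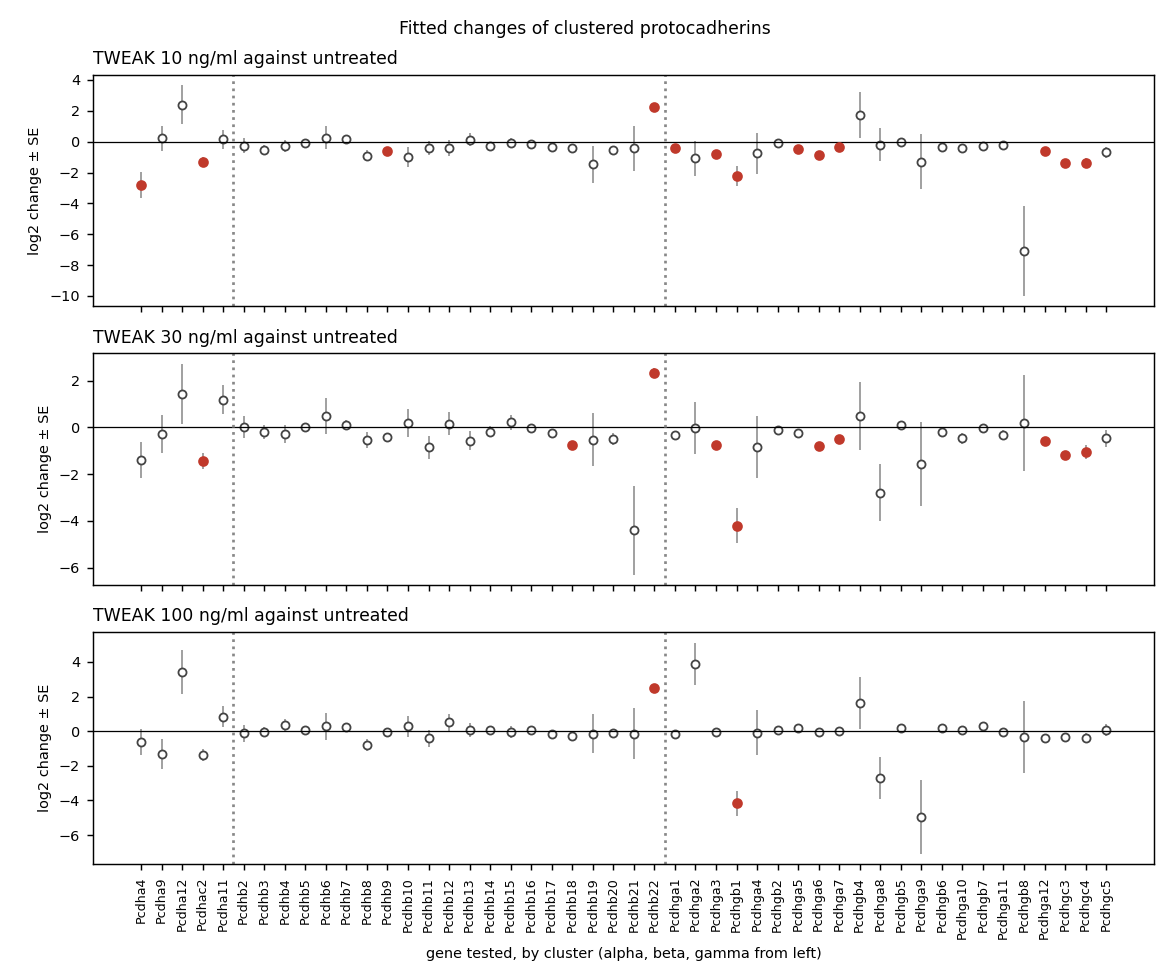
Fitted log2 change against untreated (vertical axis, with SE bars) of 48 tested members in genomic order within the clusters (horizontal axis), for 10, 30 and 100 ng/ml TWEAK from top to bottom. Pcdha11, whose row has no assigned position, is placed last in the alpha cluster. Filled points passed an edgeR adjusted p of 0.05, and Pcdha1, which had no counts in untreated cells, is left out. Filled gamma points all lie below 0, Pcdhb22 lies above 0 in all 3 panels, and the bars are widest for Pcdhgb8, Pcdhga9 and Pcdhgb4 among the gamma rows.

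Pcdhgc3 (ENSMUSG00000102918.1, chr18:37806364-37841873) had the highest mean CPM of the members over the 8 libraries, and the protein is known to bind Axin1 and dampen Wnt signalling. Its row was at 902.9 and 879.3 CPM untreated, 357.7 and 324.9 at 10 ng/ml, 367.1 and 413.0 at 30 ng/ml, and 697.2 and 713.9 at 100 ng/ml. No library of a group lay within the range of another group. It fell at 10 ng/ml (log2 change -1.38 ± 0.07 SE, edgeR adjusted p = 1.07e-05) and at 30 ng/ml (-1.19 ± 0.07, adjusted p = 3.25e-05). At 100 ng/ml the change was -0.34 ± 0.07, which did not pass (edgeR adjusted p = 0.0908). The 100 ng/ml level was above that at 10 ng/ml (1.05 ± 0.07, edgeR adjusted p = 7.32e-05) and that at 30 ng/ml (0.86 ± 0.07, adjusted p = 0.000334). All 4 calls held when any of the 8 libraries was left out.

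Of the 5.499 kb of exon in Pcdhgc3, 1.821 kb overlap no other gene, so its count can hold reads from the constant exons. An antisense gene, BC037039, also overlaps it, and whether the counting used strand is not given in the sources used here. BC037039 had 414 and 442 counts untreated, 108 and 138 at 10 ng/ml, 105 and 162 at 30 ng/ml, and 311 and 308 at 100 ng/ml. It fell by 1.49 ± 0.24 and 1.48 ± 0.24 on the log2 scale at 10 and 30 ng/ml (edgeR adjusted p = 0.00231 and 0.00296). Pcdhgc3 had 13393 to 45209 counts in the same libraries. Where the exons of the 2 genes overlap, reads cannot be told apart without strand.

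The other C-type gamma members were far lower. Pcdhgc4, a member known to support the survival of neurons, was at 13.5 and 10.1 CPM untreated, 5.61 and 3.46 at 10 ng/ml, 4.43 and 7.06 at 30 ng/ml, and 9.05 and 8.90 at 100 ng/ml. It fell at 10 ng/ml (log2 change -1.38 ± 0.30, edgeR adjusted p = 0.00976) and at 30 ng/ml (-1.04 ± 0.29, adjusted p = 0.0369). The first call was lost without untreated replicate 1 or 10 ng/ml replicate 2 (adjusted p up to 0.0591), and the second without either untreated library, 30 ng/ml replicate 1 or either 100 ng/ml library (up to 0.184). Pcdhgc5 was at 28.2 to 35.3 CPM untreated and 14.6 to 41.6 CPM over the treated libraries, which overlap, and did not pass in any comparison.

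Among gamma A members, which use the A-type variable exons, Pcdhga6 had the most stable change. Its level was 20.8 and 18.9 CPM untreated, 11.2 and 10.6 at 10 ng/ml, 11.4 and 11.8 at 30 ng/ml, and 18.4 and 19.6 at 100 ng/ml. It fell at 10 ng/ml (log2 change -0.86 ± 0.11, edgeR adjusted p = 0.000707) and 30 ng/ml (-0.78 ± 0.11, adjusted p = 0.00155), and all libraries at those doses were below the rest. The 100 ng/ml level was higher than at 10 ng/ml (0.80 ± 0.11, edgeR adjusted p = 0.00158) and than at 30 ng/ml (0.71 ± 0.11, adjusted p = 0.00393). These 4 calls also held without any single library.

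Smaller falls were called for 5 more gamma A members. Pcdhga3 was at 20.3 and 16.5 CPM untreated, 12.4 and 9.21 at 10 ng/ml, 10.6 and 11.0 at 30 ng/ml, and 14.7 and 20.9 at 100 ng/ml, a log2 change of -0.77 at both lower doses (edgeR adjusted p = 0.028 and 0.0339). Pcdhga12 changed by -0.64 and -0.58 (edgeR adjusted p = 0.0221 and 0.0371) and Pcdhga7 by -0.32 and -0.49 (adjusted p = 0.0432 and 0.00934). Pcdhga5 (-0.45, edgeR adjusted p = 0.0313) and Pcdhga1 (-0.41, adjusted p = 0.0403) were called at 10 ng/ml and not at 30 ng/ml, and no member was called between those doses. Each of these calls depended on single libraries. At 10 ng/ml the Pcdhga3 call was lost without untreated replicate 1 or 10 ng/ml replicate 2 (adjusted p up to 0.151) and the Pcdhga12 call without replicate 1 of either group (up to 0.139). The Pcdhga5 call was lost on leaving out any untreated or 10 ng/ml library (up to 0.162), the Pcdhga1 call on leaving out any of these or a 100 ng/ml library (up to 0.183), and the Pcdhga7 call on leaving out any of the 8 (up to 0.227). At 30 ng/ml the Pcdhga3 call was lost on leaving out any untreated or 30 ng/ml library (up to 0.178), and the Pcdhga7 call without replicate 1 of either group (up to 0.0765). The Pcdhga12 call there was lost without untreated replicate 1 or any 30 or 100 ng/ml library (up to 0.212).

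Pcdhgb1, one of the 5 genes whose counts changed places, was at 402.2 and 128.0 CPM untreated, 90.2 and 23.3 at 10 ng/ml, 13.7 and 15.1 at 30 ng/ml, and 12.6 and 16.9 at 100 ng/ml. The untreated libraries were above all others but differed 3.14-fold between themselves. It fell at each dose (log2 change -2.23 ± 0.67, -4.20 ± 0.73 and -4.17 ± 0.73, edgeR adjusted p = 0.0394, 0.0046 and 0.0474). The 30 ng/ml call held without any single library. The 10 ng/ml call was lost on leaving out untreated replicate 1, 10 ng/ml replicate 2 or any 30 or 100 ng/ml library (adjusted p up to 0.249), and the 100 ng/ml call without untreated replicate 1 or any 30 or 100 ng/ml library (up to 0.256). Given the exchange among the 5 rows, the fall is that of this row and was not tested for the sum.

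Pcdhgb2 and Pcdhgb6, gamma B members outside those 5, moved less. Pcdhgb2 was at 21.0 to 25.9 CPM in all 8 libraries and was called in no comparison. Pcdhgb6 was at 35.3 and 28.5 CPM untreated, 24.8 and 24.7 at 10 ng/ml, 26.7 and 29.3 at 30 ng/ml, and 32.3 and 38.8 at 100 ng/ml. It was called only for 100 against 10 ng/ml (0.52 ± 0.13, edgeR adjusted p = 0.0273), a call lost without either 10 ng/ml library or 100 ng/ml replicate 2 (up to 0.151).

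The beta cluster, whose single-exon genes do not share constant exons, moved little as a whole. Its sum was 139.4 and 142.7 CPM untreated, 123.9 and 122.1 at 10 ng/ml, 125.7 and 138.7 at 30 ng/ml, and 163.8 and 144.1 at 100 ng/ml. The ratios to untreated were 0.872, 0.937 and 1.09, and without Pcdhb22 they were 0.766, 0.823 and 0.964. Per kilobase, the 9 genes Pcdhb14 to Pcdhb22 had a median of 1.83 CPM untreated and the 13 genes Pcdhb1 to Pcdhb13 a median of 0.501 CPM. Spearman's rho between position in the cluster and level per kilobase, over the 22 genes within each library, was 0.42 to 0.65, as a description.

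Pcdhb22 (ENSMUSG00000073591.4, chr18:37517871-37524479), the last beta gene and a single exon, was higher with TWEAK, while 17 of the 21 tested beta members had a fitted change below 0 at 10 ng/ml. Its level was 4.67 and 2.85 CPM untreated, 17.4 and 18.3 at 10 ng/ml, 19.6 and 18.8 at 30 ng/ml, and 21.6 in both 100 ng/ml libraries. Every treated library was above both untreated ones. It rose at all 3 doses, by 2.25 ± 0.21, 2.35 ± 0.21 and 2.52 ± 0.21 on the log2 scale (edgeR adjusted p = 0.000137, 0.000155 and 0.00198), and these calls held without any single library. It was also the only member called higher than untreated at 100 ng/ml, where 23 of the 49 tested members had a fitted change above 0. In level per kilobase it went from 0.569 CPM untreated, the lowest of the 9 genes Pcdhb14 to Pcdhb22, to 2.71, 2.91 and 3.27 CPM with rising dose.

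Pcdhb22 overlaps its neighbour Pcdhb21, so 6.154 of its 6.609 kb of exon belong to no other gene. Pcdhb21 was at 2.58 and 6.58 CPM untreated, 1.5 and 5.24 at 10 ng/ml, 0.418 and 0 at 30 ng/ml, and 8.29 and 0 at 100 ng/ml, with no order by dose. The sum of both was 2.55, 2.33 and 3.09 times the untreated level at the 3 doses. A count of 0, as in 2 of these libraries, allows up to 3 counts, and the limit covers counting error only.

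The most abundant beta members by CPM, Pcdhb17 and Pcdhb16, did not pass the test against untreated. Pcdhb17 was at 32.3 and 30.6 CPM untreated and 24.1 to 29.1 CPM over the treated libraries, so treated and untreated did not overlap, but the change at 10 ng/ml was -0.32 ± 0.11 and did not pass (edgeR adjusted p = 0.0556). Pcdhb16 was at 22.8 and 23.5 CPM untreated and 18.8 to 27.0 CPM with TWEAK, which overlap. Pcdhb9 fell at 10 ng/ml (9.37 and 9.35 CPM untreated, 6.04 and 6.19 treated, log2 change -0.61 ± 0.19, edgeR adjusted p = 0.0471), and Pcdhb18 at 30 ng/ml (8.71 and 9.77 untreated, 5.17 and 5.81 treated, -0.75 ± 0.18, adjusted p = 0.0193). The first call was lost on leaving out any untreated, 10 ng/ml or 100 ng/ml library (up to 0.151), the second without untreated replicate 2 or 30 ng/ml replicate 1 (up to 0.107). Pcdhb19 had no counts in 10 ng/ml replicate 2 but 8.24 to 14.9 CPM in the 7 other libraries, and was called in no comparison.

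**Figure D4:**
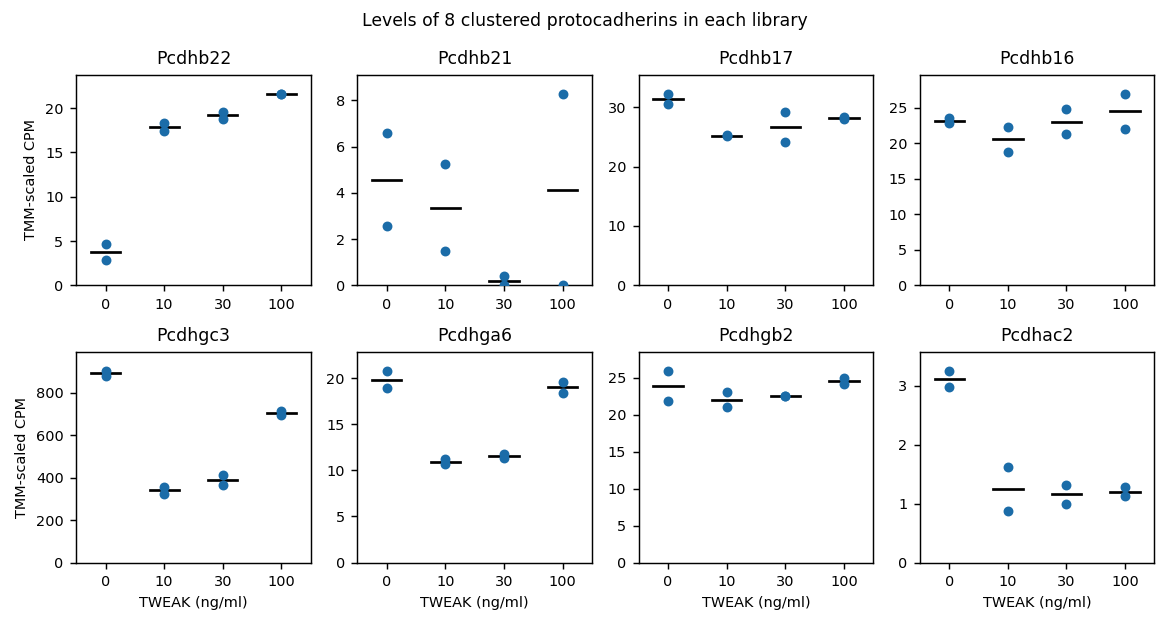
Level (vertical axis, TMM-scaled CPM, from 0) of 8 clustered protocadherins against TWEAK dose (horizontal axis, ng/ml), each point 1 library and each bar the mean of 2. Pcdhb22 stands above untreated at every dose, Pcdhgc3 and Pcdhga6 are lowest at 10 and 30 ng/ml and higher again at 100 ng/ml, and Pcdhgb2 lies between 21.0 and 25.9 CPM throughout.

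Alpha members were the lowest of the clusters, and 8 of the 14 rows had too few counts to be tested. The cluster summed to 7.27 and 8.51 CPM untreated, 6.44 and 6.87 at 10 ng/ml, 7.90 and 9.14 at 30 ng/ml, and 9.88 and 9.98 at 100 ng/ml. The highest alpha values were 5.15 CPM for Pcdha11 and 6.13 CPM for Pcdha12, both in libraries at 100 ng/ml, and neither gene was called. Pcdhac2, a C-type member known for the spacing of serotonergic axons, was at 2.98 and 3.25 CPM untreated, 0.881 and 1.61 at 10 ng/ml, 0.991 and 1.32 at 30 ng/ml, and 1.28 and 1.13 at 100 ng/ml. All treated libraries were below both untreated ones, and it fell at 10 ng/ml (log2 change -1.31 ± 0.34, edgeR adjusted p = 0.023) and 30 ng/ml (-1.43 ± 0.34, adjusted p = 0.0199). Both calls were lost on leaving out either untreated library, the first also without 10 ng/ml replicate 1 (up to 0.0998) and the second without 30 ng/ml replicate 1 (up to 0.118). At 100 ng/ml the change was -1.37 ± 0.34 (edgeR adjusted p = 0.141). Pcdhac1, the other C-type alpha member, had 0.0251 CPM in 1 library and no counts in the rest.

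Pcdha1, the first alpha gene, had no counts in either untreated library. It had 7 and 20 counts at 10 ng/ml, 49 and 27 at 30 ng/ml, and 0 and 1 at 100 ng/ml. Against 3 counts over the untreated group this was at least 11.2-fold higher at 10 ng/ml and at least 28.8-fold higher at 30 ng/ml. Its highest level was 1.08 CPM. It passed the low-count filter only through the libraries where it was high, so its calls (edgeR adjusted p = 0.0145 and 0.00684, and 0.018 and 0.00919 with no such filter) are given as a description. With a filter at a mean of 1 CPM it was not tested. The 10 ng/ml call was lost on leaving out either untreated library or 10 ng/ml replicate 2 (adjusted p up to 0.0637). Pcdha4 fell at 10 ng/ml from 1.94 and 1.48 CPM to 0.134 and 0.351 (log2 change -2.79 ± 0.84, edgeR adjusted p = 0.0399), a call lost on leaving out any untreated or 10 ng/ml library (up to 0.182), and only 0.404 of its 5.768 kb of exon overlap no other gene.

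Between doses, the members at 30 ng/ml did not differ from those at 10 ng/ml by the test, with 0 of 49 called by edgeR (0.0% of all genes called), 3 at an unadjusted p under 0.05 and 0 by DESeq2. For 100 against 10 ng/ml, 9 of 49 were called (18.4%, with 22.0% of all genes), 8 higher, all gamma rows (10.7% of all genes were higher), and Pcdha1 lower (11.2%). For 100 against 30 ng/ml, 4 were called (8.16%, with 15.2% of all genes), Pcdhgc3, Pcdhga6 and Pcdhga7 higher (7.15% of all genes) and Pcdha1 lower (8.04%). Because Pcdha1 passed the filter on low counts only through libraries at 10 and 30 ng/ml, its calls between doses are also a description. For 100 against 10 ng/ml its call was lost with DESeq2, with limma-voom, with no such filter and with replicate number as a block. Of the 9, Pcdhga2 was higher by 4.97 ± 1.29 (edgeR adjusted p = 0.029), a difference that was 1.43 without 100 ng/ml replicate 1, where the call was lost. Pcdhgc3 and Pcdhga6 kept their calls at both contrasts without any single library, while the 7 others called for 100 against 10 ng/ml each lost the call without at least 1 of the 4 libraries compared (highest adjusted p from 0.069 for Pcdhga5 to 0.248 for Pcdhga3). For 100 against 30 ng/ml the Pcdhga7 call was lost without 30 ng/ml replicate 1 or either 100 ng/ml library (up to 0.0751), and the Pcdha1 call on leaving out any of the 4 (up to 0.128).

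Genes around the clustered protocadherins were counted from lists chosen in the same way, beside 29.2%, 23.3% and 1.12% of all genes called at 10, 30 and 100 ng/ml. Of 10 tested non-clustered protocadherins, single genes with roles of their own in cell adhesion, 3 were higher and 1 lower at 10 ng/ml (40.0%), 2 and 1 at 30 ng/ml (30.0%), and 0 and 1 at 100 ng/ml (10.0%). Pcdh17 rose at 10 ng/ml from 3.40 and 3.53 to 11.2 and 12.5 CPM (1.78 ± 0.18, edgeR adjusted p = 0.000197), and Pcdh10 fell at 30 ng/ml from 30.1 and 25.3 to 12.1 and 13.8 CPM (-1.10 ± 0.14, adjusted p = 0.00111). Of 25 tested genes of promoter choice and silencing, 4 were higher and 2 lower at 10 ng/ml (24%) and 2 and 1 at 30 ng/ml (12%). Uhrf1, which helps keep DNA methylation through division, rose by 2.04 ± 0.15 (edgeR adjusted p = 3.9e-05), the cohesin subunit gene Stag1 fell by 0.42 ± 0.07 (adjusted p = 0.00409), and Rest, a repressor of neuronal genes, rose by 0.37 ± 0.07 (adjusted p = 0.00567), all at 10 ng/ml. Ctcf, whose protein binds the promoters of the alpha and gamma variable exons, changed by -0.24 ± 0.07 at 10 ng/ml (edgeR adjusted p = 0.0351), a call lost on leaving out any untreated, 10 ng/ml or 100 ng/ml library (up to 0.159).

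Of 27 signalling partners and proteases, 6 were higher and 3 lower at both 10 and 30 ng/ml (33.3% at each). Among them Wasf2, a subunit of the WAVE complex that drives actin branching, was higher by 0.42 ± 0.06 at 10 ng/ml (edgeR adjusted p = 0.00161). Prkca changed by -0.78 ± 0.11 at 30 ng/ml (edgeR adjusted p = 0.00177). Of 23 tested other cadherins, 6 were higher and 3 lower at 10 ng/ml (39.1%) and 5 and 1 at 30 ng/ml (26.1%). Cdh11, a cadherin typical of fibroblasts, rose by 1.40 ± 0.10 at 10 ng/ml (edgeR adjusted p = 3.12e-05), Cdh5, the cadherin of endothelial junctions, by 4.72 ± 0.34 from 0.18 and 0.12 to 4.27 and 3.81 CPM (adjusted p = 4.07e-05), and Fat4 by 1.58 ± 0.15 (adjusted p = 0.000144). Of 20 tested genes beside the clusters on the chromosome, 5 were higher at 10 ng/ml (25%), with Cd14 higher by 1.22 ± 0.17 (edgeR adjusted p = 0.00104), and 1 higher and 1 lower at 30 ng/ml (10.0%). Pcdh1, called higher at 10 ng/ml, is counted both here and among the non-clustered protocadherins. At 100 ng/ml edgeR called 0 genes in each of the last 4 lists. At an unadjusted p under 0.05 these had 2, 3, 2 and 1 in the order given, and DESeq2 called 1, 0, 1 and 0. At 10 ng/ml the median log2 change was 0.26 for non-clustered protocadherins, -0.09 for promoter choice and silencing, 0.04 for signalling partners, 0.34 for other cadherins and 0.13 for genes beside the clusters, with -0.40 for all clustered protocadherins and 0.006 for all genes.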

How the data were processed

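Mouse lung fibroblast RNA was sequenced in 8 libraries. The deposited table holds raw counts per gene made by the authors; STAR, StringTie and mm10 are named per the submitters' processing notes, while the role of each, the annotation used and the strand setting are not given in those sources. Of 55335 rows, 3225 without a symbol were left out (0.168% to 0.178% of counts). The 17360 genes past edgeR's filter on low counts were fitted together with edgeR 4.0.16 (quasi-likelihood, TMM, R 4.3.3) in 1 model with a mean per group (4 residual degrees of freedom), two-sided, with Benjamini-Hochberg adjustment over all genes and a threshold of 0.05. CPM values are TMM-scaled, errors are SE, and levels per kilobase use exon lengths from GENCODE M21. DESeq2 1.42.0 and limma 3.58.1 were alternatives, and the fit was tested on simulated data. The members and lists were chosen with earlier results of these data known. Values were printed for members called in any comparison with untreated or between doses, the 3 highest of each cluster by CPM and all C-type members. Pcdhgb2, Pcdhgb4, Pcdhga4, Pcdhga8, Pcdhga10, Pcdhb6, Pcdhb19 and Pcdhb21 were named outside this rule, after their values were seen. For the other lists, genes were named from among the 4 with the smallest p. Marker genes named singly were chosen after their values were seen. Replicates were compared for duplication by chi-square per degree of freedom (24.5 to 30.1), and none was a duplicate. Leaving out libraries, other scalings, filters, tools and a replicate block were tried.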

Additional observations from a re-analysis of the deposited data

How the results depend on the processing

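Against untreated, the 14 members called at 10 ng/ml were 9 with no low-count filter, 7 with an added log2 change of at least 1 and 3 to 14 over the fits without 1 library. The 11 at 30 ng/ml were 6 with that change and 5 to 11 without 1 library. The 2 at 100 ng/ml were 1 with limma-voom, 1 with no filter, 4 with only the groups compared and 1 to 2 without 1 library. For 30 against 10 ng/ml the 0 became 0 to 1 without 1 library. The 9 for 100 against 10 ng/ml were 5 with no filter, 5 with only the groups compared, 3 with the added change and 3 to 8 without 1 library. The 4 for 100 against 30 ng/ml were 1 with the added change and 2 to 4 without 1 library. The cause was not tested. With a replicate block the counts were 10, 8, 1, 0, 5 and 4. Over all tested genes, same-numbered libraries did not deviate together (correlations -0.0463 to 0.0282 over 6 pairs of groups). A correlation over all genes can miss a shared culture or batch, and the labels do not say whether the numbers pair libraries. Without both 100 ng/ml libraries, chosen after seeing the data, the counts were 10 at 10 ng/ml and 10 at 30 ng/ml.

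The summed alpha ratio at 30 ng/ml turned from 1.08 to 0.725 without its most abundant member, and at 100 ng/ml went from 1.26 to 1.1. The beta ratio at 10 ng/ml went from 0.872 to 0.889 with library totals and 0.892 without its most abundant member, and the gamma ratio at 10 ng/ml from 0.454 to 0.506 without Pcdhgc3. Per kilobase of exon overlapping no other gene, the medians were 0.0212, 0.912 and 7.61 CPM for alpha, beta and gamma. The gamma median leaves out Pcdhga10, which has no such exon in the annotation, and the alpha median leaves out both Pcdha11 rows. Over 657 refits of the 40 single calls that gave an adjusted p, 0 changed direction and 164 lost the call.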
